A study of Mus musculus with 24 samples.

Results

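The genes described here make, break down, carry or sense prostaglandin E2 in the mouse colon. They are 10 symbols chosen by name and looked up in every expression table: the cyclooxygenases Ptgs1 and Ptgs2, the synthases Ptges and Ptges2, the dehydrogenase Hpgd, the transporter Slco2a1 and the receptors Ptger1, Ptger2, Ptger3 and Ptger4. All 10 were among the 24346 symbols of each table. The tables are RNA-seq profiles of mouse colorectal tissue from an experiment in chemical carcinogenesis, in which every library, controls included, came from AOM/DSS treatment (azoxymethane, a carcinogen, with dextran sulfate sodium, which inflames the colon). The 24 libraries comprised 14 tumors and 10 samples labelled normal, and the genotype label of each was c-MAF_KO or WT. c-MAF, encoded by Maf, is a transcription factor. The titles divide the c-MAF_KO libraries into 1_hetero_ko (called here KO-1-hetero), 8_hetero_ko (KO-8-hetero) and 8_homo_ko (KO-8-homo), each with 3 tumors and 2 normals. They divide the WT libraries into wild_young (WT-young, 4 tumors and 2 normals) and wild_old (WT-old, 1 tumor and 2 normals). The labels give no ages in numbers, do not explain the leading 1 and 8, do not say in which cells the gene was deleted, and do not tie tumors to animals, so p-values measure the spread between these samples, which may be partly technical. There was no group without AOM/DSS, and the normal samples are therefore not untreated colon.

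Prostaglandin E2 is a lipid made from arachidonic acid. Cyclooxygenases convert the acid to an unstable intermediate, Ptgs1 being present in most tissues and Ptgs2 being induced by inflammatory signals, and a prostaglandin E synthase then completes the molecule. The signal ends when the transporter Slco2a1 brings prostaglandin E2 into cells and Hpgd, 15-hydroxyprostaglandin dehydrogenase, oxidises it. Outside the cell it acts on 4 receptors, of which those encoded by Ptger2 and Ptger4 raise cyclic AMP, that of Ptger3 mostly lowers it, and that of Ptger1 raises calcium. In the colon the pathway is known for its part in healing after injury and in tumor growth, and Hpgd is a product of mature epithelium that is often low in colorectal tumors.

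Sequencing depth was estimated from the commonest ratio of low values between each library and a reference library. It spanned 0.697 to 1.87 times that of the median library. Between 12074 and 13290 genes reached 1 FPKM (fragments scaled by transcript length and by the library's mapped fragments). No 2 libraries of a group were identical. Epithelial markers were abundant in every library, at a summed level of 3937 to 13909 FPKM over 7 genes. Maf itself was at 2.62 to 7.4 FPKM in the KO tumors and 1.63 to 7.26 FPKM in the WT tumors. All 4 WT-young tumors (1.63 to 2.26 FPKM) were below all 9 KO tumors, and the overlap came from the WT-old tumor (7.26), so Maf was not lower in the tumors labelled KO. The deleted segment is not given in the labels, and a value for the whole gene checks nothing about it; KO and WT are used below as the names of the labels. Xist, the RNA of the inactive X chromosome, was at 7.38 FPKM or more in 6 libraries, all KO-1-hetero or KO-8-hetero, and at 0.0719 FPKM or less in the other 18. These 6 were 4 of the 6 KO normals but 2 of the 9 KO tumors, so Xist is unevenly spread over tissue in the KO-label comparison of tumors with normals.

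The 10 genes lie on 7 chromosomes of mouse build mm10 (GRCm38). Ptger1 is at chr8:83666644-83672756 on the plus strand. Ptger4 (chr15:5233399-5244187, minus strand) overlaps Ttc33 on the opposite strand. The library kit keeps strand, but the strand setting of the authors' quantification is not given in the sources used here, so the values of Ptger1 and Ptger4 are uncertain to that extent. Across the 14 tumors Pearson's r of Ptger4 with Ttc33 was 0.29 (permutation p = 0.311, adjusted p = 0.49 over 10 relations). No overlapping protein-coding gene was annotated for the other 8: Ptgs1 (chr2:36216742-36258593), Ptgs2 (chr1:150100031-150108234), Ptges2 (chr2:32395890-32402740), Hpgd (chr8:56294552-56321046), Slco2a1 (chr9:103007061-103096002), Ptger2 (chr14:44988111-45003820) and Ptger3 (chr3:157566821-157644758) on the plus strand, and Ptges (chr2:30889471-30931020) on the minus strand.

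RefSeq promoter windows of build GRCm38.p6 were found for 9 of the 10 members. The sequence upstream of 3 genes is shown here, Ptgs2 as the inducible enzyme that was high in some tumors, and Hpgd and Ptger3 as genes that fell in tumors. All 3 are on the plus strand, at chr1:150099781-150100030 for Ptgs2, chr8:56294302-56294551 for Hpgd and chr3:157566626-157566820 for Ptger3, and capitals mark a match to a searched motif. The Ptgs2 stretch overlaps the first exon of Ptgs2os, a noncoding RNA on the opposite strand.
Ptgs2: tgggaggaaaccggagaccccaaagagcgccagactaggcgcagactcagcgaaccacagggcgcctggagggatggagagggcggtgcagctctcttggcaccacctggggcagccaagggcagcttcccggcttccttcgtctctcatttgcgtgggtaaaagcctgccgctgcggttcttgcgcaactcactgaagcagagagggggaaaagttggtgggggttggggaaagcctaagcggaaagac
Hpgd: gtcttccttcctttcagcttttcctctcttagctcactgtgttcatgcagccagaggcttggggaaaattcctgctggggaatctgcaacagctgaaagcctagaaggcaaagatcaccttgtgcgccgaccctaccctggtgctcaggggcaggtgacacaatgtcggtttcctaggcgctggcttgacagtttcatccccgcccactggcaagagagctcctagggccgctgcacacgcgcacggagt
Ptger3: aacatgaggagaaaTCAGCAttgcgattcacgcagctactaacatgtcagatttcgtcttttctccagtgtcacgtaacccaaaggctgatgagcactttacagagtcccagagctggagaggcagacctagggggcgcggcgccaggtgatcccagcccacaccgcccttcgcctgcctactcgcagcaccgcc
The windows of 300 bases, 250 before and 50 after the start, were searched on both strands for TATAAA (the TATA box), TGACGTCA and CGTCA (the cyclic AMP response element and its part, which overlap), TGANTCA (AP-1), TGCTGA (part of the Maf recognition element), CTTTGAT and CTTTGAA (TCF/LEF) and the NF-kB motif. Ptger3 held TGCTGA on the minus strand 236 bases before the start used in its promoter window, which lies past the first annotated base of the gene, and this match is printed above as its complement TCAGCA read on the plus strand. Of all 32851 mouse windows, 19.5% held TGCTGA. Slco2a1 held TATAAA 29 bases before the start and Hpgd held it 5 bases past the start, against 13.6% of all windows. Ptgs2 held CGTCA 14 bases past the start, against 20.8% of all windows. These matches describe letters in a window and say nothing about binding.

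By FPKM, a level per transcript length, the members fell into a wide range in normal tissue. Hpgd led with a median of 123 FPKM, and its lowest normal library (91.5) was above the highest normal value of any other member. Ptges2 (22.7 FPKM), Slco2a1 (21.1), Ptgs1 (11.3), Ptger4 (9.35) and Ptger1 (9.01) followed with overlapping ranges. Below these, at overlapping ranges again, were Ptges (3.05 FPKM), Ptger3 (2.36) and Ptgs2 (1.55), with Ptger2 last (0.722). In tumors Hpgd still had the highest median (32 FPKM), but its range of 14.8 to 65.5 met that of Ptges2. Ptges2 (13.7 FPKM), Ptgs1 (12.7), Ptger4 (9.32), Slco2a1 (8.71), Ptger1 (8.18) and Ptges (7.5) were close together, followed by Ptgs2 (4.64), Ptger2 (0.839) and Ptger3 (0.601). Thus the median of Ptgs2 lay below that of Ptger3 in normal tissue and above it in tumors.

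**Figure D1:**
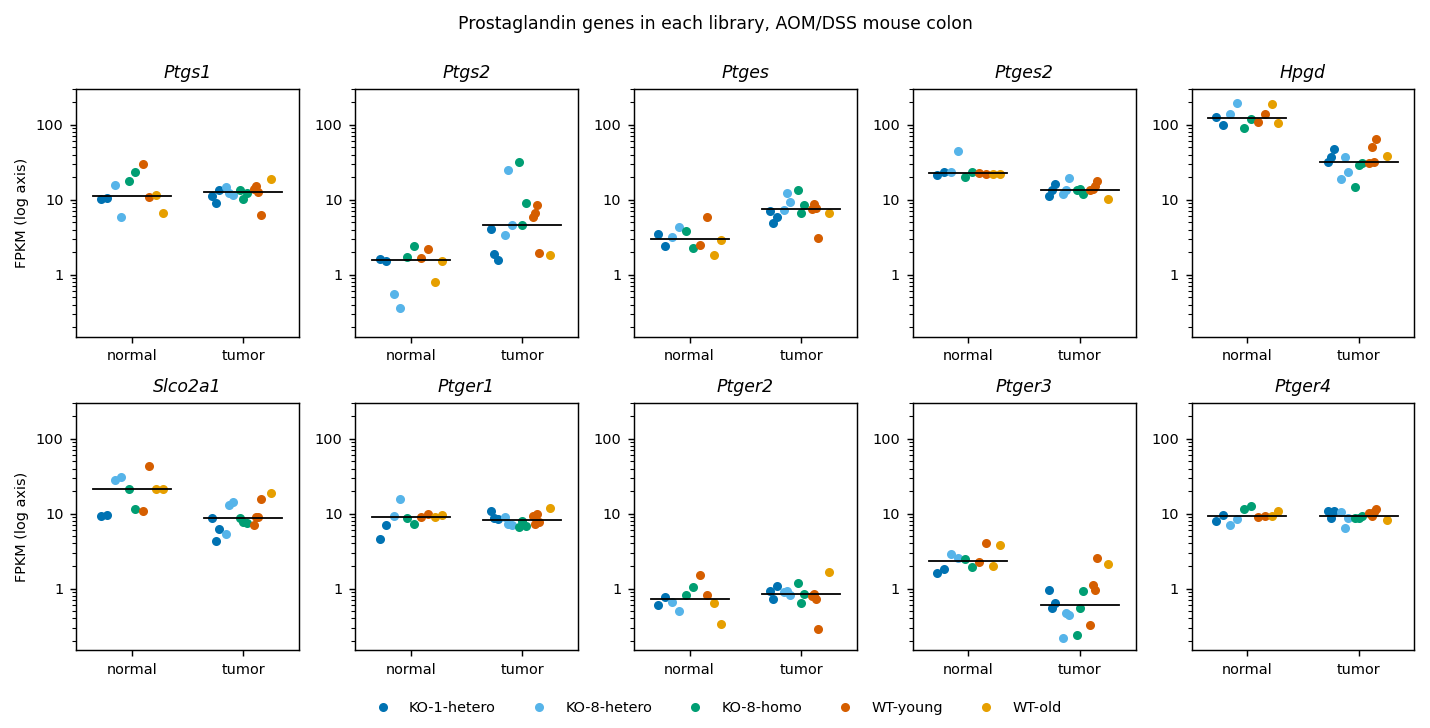
FPKM of each of the 10 genes on a log axis, 1 point per library, colored by title group, with normal samples left and tumors right in each panel; the black line is the median over 10 normals or 14 tumors. Hpgd and Ptges2 separate completely, with every tumor below every normal, while Ptgs2 spreads from 1.59 to 32.1 FPKM in tumors.

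In tumors against normal tissue the synthase Ptges was higher, and the synthase Ptges2, the dehydrogenase Hpgd and the receptor Ptger3 were lower, under both genotype labels. Under the KO label 6 of the 10 members passed limma's test at an adjusted p of 0.05: Ptgs2 and Ptges rose, and Ptges2, Hpgd, Slco2a1 and Ptger3 fell. Of all 13799 genes tested 47.2% passed in the same comparison (24.1% higher and 23.2% lower in tumors), so the count of members is near the background. Under the WT label 4 of 10 passed, against 30.4% of all genes (15.5% higher and 14.8% lower): Ptges rose, and Ptges2, Hpgd and Ptger3 fell. The median log2 fold change of the members was -0.03 under the WT label and -0.06 under the KO label, and that of all genes was 0.02 under each. No member was called in the opposite direction under the 2 labels, and the test of the difference between labels (the interaction) called none of the 10. That test called 0% of all genes, with 654 of 13799 at an unadjusted p under 0.05. These libraries are bulk tissue, in which fewer cells of a type and less RNA per cell cannot be told apart.

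**Figure D2:**
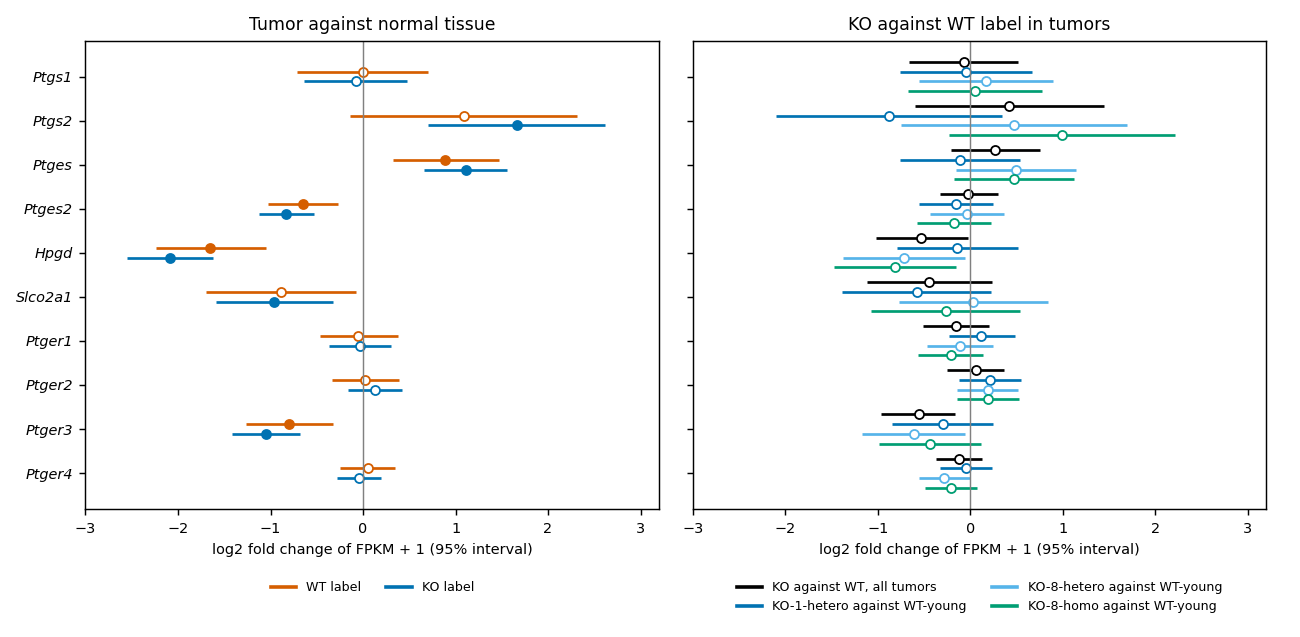
Log2 fold changes of FPKM + 1 for the 10 genes (dots) with 95% intervals (lines), tumor against normal under each label on the left and KO against WT tumors on the right; filled dots passed an adjusted p of 0.05 in limma and open dots did not. On the left Hpgd lies farthest below 0 (-1.65 and -2.09), and on the right every dot is open.

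Among the enzymes of synthesis, the constitutive cyclooxygenase Ptgs1 gave no call. It ranged from 6.18 to 18.7 FPKM in tumors (median 12.7) and from 5.89 to 29.8 in normals (median 11.3). The tumor-to-normal difference was 0.00 on the log2(FPKM + 1) scale under the WT label (95% interval -0.71 to 0.70) and -0.08 under the KO label (-0.64 to 0.47). These intervals leave room for changes of that size in either direction.

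Ptgs2, the inducible cyclooxygenase, measured 1.59, 1.91 and 4.04 FPKM across KO-1-hetero tumors, 3.35, 4.63 and 24.8 across KO-8-hetero tumors and 4.65, 8.96 and 32.1 across KO-8-homo tumors. The WT-young tumors were at 1.94, 5.86, 6.66 and 8.44 FPKM and the WT-old tumor at 1.81. The 10 normal libraries ran from 0.357 to 2.42 FPKM (median 1.55). Thus 10 of 14 tumors were above every normal library, and the 4 that were not were 2 KO-1-hetero tumors, 1 WT-young tumor and the WT-old tumor. Under the KO label Ptgs2 rose by 1.66 on the log2 scale (SE 0.466, adjusted p = 0.00594, limma), from 1.36 ± 0.772 FPKM (SD, n = 6) to 9.55 ± 11.1 (SD, n = 9). Under the WT label the means were 1.54 ± 0.592 FPKM (SD, n = 4) and 4.94 ± 2.95 (SD, n = 5), and the difference of 1.09 did not pass (SE 0.593, adjusted p = 0.165, limma). Without the 6 libraries with Xist the KO-label value was 1.47 and did not pass either (adjusted p = 0.146, limma). The call did not rest on either of the 2 tumors above 20 FPKM alone: with each library left out in turn, the KO-label value ran from 1.38 to 1.84 and its adjusted p from 0.00246 to 0.0177.

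Ptges, the inducible synthase that is often coupled to Ptgs2, rose under both labels. It went from 3.25 ± 0.803 FPKM (SD, n = 6) in KO normals to 8.39 ± 2.88 (SD, n = 9) in KO tumors, and from 3.27 ± 1.78 (SD, n = 4) to 6.81 ± 2.2 (SD, n = 5) under the WT label. All 9 KO tumors (4.9 to 13.6 FPKM) were above all 6 KO normals (2.28 to 4.3). The 5 WT tumors, at 3.09, 6.74, 7.63, 7.85 and 8.73 FPKM, overlapped the WT normals, at 1.82, 2.53, 2.87 and 5.86, through the lowest tumor. The log2 differences were 1.11 (SE 0.218, adjusted p = 0.000347) under the KO label and 0.89 (SE 0.278, adjusted p = 0.0187) under the WT label in limma. The WT-label call was lost without the 3 WT-old libraries (0.59, adjusted p = 0.258), without WT-young tumor 2 (adjusted p = 0.0504) and without WT-old normal 1 (adjusted p = 0.083).

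Ptges2, a second synthase that is expressed constitutively, moved the other way. Every tumor (10.2 to 19.4 FPKM, median 13.7) was below every normal library (20.4 to 45, median 22.7). This complete separation was shared by 6.7% of all genes tested across the 24 libraries. Ptges2 fell by 0.83 on the log2 scale under the KO label (SE 0.144, adjusted p = 0.000101) and by 0.65 under the WT label (SE 0.183, adjusted p = 0.0106) in limma. Without the 3 WT-old libraries the WT-label value was -0.55 and did not pass (adjusted p = 0.104). The ratio of Ptges to Ptges2 within a library had a median of 0.12 in normals and 0.584 in tumors, and it stayed below 1 in all 24 libraries.

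Hpgd, which inactivates prostaglandin E2, had the largest fall of the 10 members on the log2(FPKM + 1) scale. KO tumors ran from 14.8 to 48.1 FPKM with a median of 31, and KO normals from 91.5 to 193 with a median of 123. The 5 WT tumors were at 31, 31.8, 38.1, 49.9 and 65.5 FPKM and the 4 WT normals at 107, 108, 138 and 192. Every tumor was thus below every normal library, also within each label. Of all genes, 6.7% separated as completely across the 24 libraries, 15.5% under the KO label and 23.3% under the WT label. Hpgd fell by 2.09 on the log2 scale under the KO label (SE 0.226, adjusted p = 7.29e-07) and by 1.65 under the WT label (SE 0.287, adjusted p = 0.000331) in limma, and no left-out library changed either call. Markers of mature colonocytes fell alongside: 6 of 7 tested passed downward under each label, with medians of -2.85 (WT) and -3.91 (KO), and their summed level was 437 to 3809 FPKM in tumors against 4627 to 21112 in normals. Within the 14 tumors Hpgd and the summed colonocyte markers had a Pearson's r of 0.52 (permutation p = 0.059, adjusted p = 0.172) and a Spearman's rho of 0.49 (permutation p = 0.0772). Leaving out the 2 tumors farthest from the median of the markers gave 0.76 (permutation p = 0.00348, n = 12). The 9 KO tumors alone gave 0.49 (permutation p = 0.183), and neither of these 2 p-values is adjusted. The part of these cells in the fall of Hpgd was not tested.

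Slco2a1, the uptake transporter, was lower in tumors with more overlap. KO tumors ran from 4.32 to 14.1 FPKM (median 7.83) and KO normals from 9.31 to 30.4 (median 16.4). The WT tumors were at 7.11, 8.92, 9.08, 15.9 and 19 FPKM and the WT normals at 11, 21.1, 21.2 and 43.6. Of the 14 tumors 10 were below all 10 normals. Slco2a1 fell by 0.96 under the KO label (SE 0.308, adjusted p = 0.0143), while the WT-label value of -0.89 did not pass (SE 0.392, adjusted p = 0.0874, limma). The WT-label value passed without WT-young normal 1 (-1.19, adjusted p = 0.0327) or without the WT-old tumor (-1.07, adjusted p = 0.0479). The KO-label call was lost without the 6 libraries with Xist, at the same size (-0.96, adjusted p = 0.106). Endothelial markers, which belong to a cell type known to express this transporter, had a summed level of 20 to 85.9 FPKM in tumors and 19.5 to 69.5 in normals, and of the 6 markers none was called under the WT label and 2 were called higher under the KO label (Cdh5 by 0.62 and Vwf by 0.68).

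Among the receptors, Ptger3 alone was called in tumors against normal tissue. The KO tumors ran from 0.222 to 0.947 FPKM (median 0.552), all below the KO normals at 1.61 to 2.89 (median 2.21). The WT tumors were at 0.324, 0.966, 1.12, 2.1 and 2.53 FPKM and overlapped the WT normals at 2.02, 2.26, 3.82 and 4.1 through the 2 highest tumors, WT-young tumor 4 and the WT-old tumor. Ptger3 fell by 1.05 on the log2 scale under the KO label (SE 0.181, adjusted p = 8.98e-05) and by 0.80 under the WT label (SE 0.23, adjusted p = 0.0122) in limma. Ptger3 is a low gene, at 1 FPKM or more in all 10 normals but only 3 tumors, so it passed the filter through normal tissue and the log2(FPKM + 1) scale understates its change. With WT-young and WT-old given equal weight in a model of the 10 title groups, the WT-label value was -0.63 and did not pass (adjusted p = 0.0684, limma). Smooth muscle markers fell too: all 7 passed downward under each label, with medians of -2.82 (WT) and -2.15 (KO) and summed levels of 182 to 2901 FPKM in tumors against 937 to 7185 in normals. Across the 14 tumors r of Ptger3 with these markers was 0.10 (permutation p = 0.737, adjusted p = 0.809), and across the 9 KO tumors it was 0.74 (permutation p = 0.0266, unadjusted). Without the 2 tumors farthest from the median of the markers r was 0.13 (permutation p = 0.694, n = 12). The part of muscle in the fall of Ptger3 was not tested.

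The other 3 receptors gave no call, and their groups overlapped. Ptger4, the receptor that raises cyclic AMP and is abundant in gut epithelium and immune cells, was at 6.43 to 11.6 FPKM in tumors and 7.11 to 12.5 in normals. Its difference was 0.05 under the WT label (95% interval -0.25 to 0.35) and -0.04 under the KO label (-0.28 to 0.19), the narrowest intervals among the receptors. Ptger1 was at 6.67 to 11.9 FPKM in tumors and 4.52 to 15.6 in normals, with differences of -0.05 (-0.47 to 0.38) and -0.03 (-0.37 to 0.30). Ptger2, the other receptor that raises cyclic AMP, was at 0.286 to 1.69 FPKM in tumors and 0.341 to 1.54 in normals, with differences of 0.02 (-0.34 to 0.39) and 0.13 (-0.16 to 0.42). Ptger2 reached 1 FPKM in only 5 libraries, and at that level a change would be understated on this scale. Ptger4 exceeded Ptger2 in every library, by 4.92 to 40.5 times in tumors and 5.83 to 31.7 times in normals.

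Counting separation without a model, 4 of 10 members did not overlap between KO tumors and KO normals (Ptges, Ptges2, Hpgd and Ptger3), against 15.5% of all genes. Under the WT label it was 2 of 10 (Ptges2 and Hpgd), against 23.3% of all genes in these smaller groups. Ratios within a library restate the changes above and add no support, as Hpgd and Ptges had already been called in opposite directions. The share of other gene pairs that separate as well was not computed. Hpgd exceeded Ptges by 23.6 to 106 times in normals (median 42.4) and by 1.09 to 21.2 times in tumors (median 4.17), so no tumor reached the lowest normal ratio. The smallest tumor ratio, 1.09, was that of KO-8-homo tumor 1, and the largest, 21.2, that of WT-young tumor 4. Ptgs2 stood at 0.0347 to 0.228 of the Ptgs1 level in normals (median 0.1) and at 0.0968 to 2.4 in tumors (median 0.404). Ptgs2 exceeded Ptgs1 in only 2 libraries, KO-8-hetero tumor 2 (1.97) and KO-8-homo tumor 1 (2.4).

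**Figure D3:**
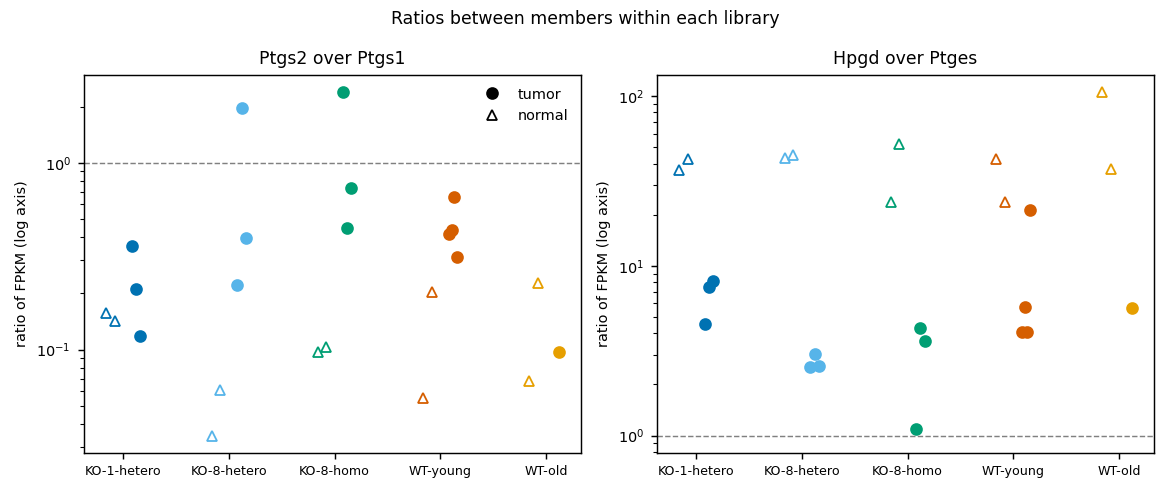
Ratio of 2 FPKM values within each library on a log axis, by title group; circles are tumors, triangles normals, and the dashed line marks a ratio of 1. The Hpgd to Ptges ratio is 23.6 or more in all normals and 21.2 or less in all tumors, and the Ptgs2 to Ptgs1 ratio passes 1 in 2 tumors.

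The comparison of c-MAF_KO with WT tumors, the question in the study's title, called none of the 10 members. Only 1 of 13799 genes was called in it (0.00725%), with 1147 at an unadjusted p under 0.05. With equal weights for the title groups, fitted in a model of the 10 title groups, 771 genes were called and still none of the 10 members. That setting gave the single WT-old tumor a greater weight and also estimated the spread within title groups. Ptgs2 differed by 0.42 (SE 0.493, 95% interval -0.60 to 1.44, adjusted p = 0.863), with 3 of 9 KO tumors above all WT tumors and 1 below all of them. Hpgd differed by -0.53 (SE 0.239, 95% interval -1.02 to -0.03, adjusted p = 0.565), and 4 of the 9 KO tumors were below all 5 WT tumors. Ptger3 differed by -0.56 (SE 0.191, 95% interval -0.96 to -0.17, adjusted p = 0.44), with 2 of 9 KO tumors below all WT tumors. The limma intervals of Hpgd and Ptger3 are unadjusted and exclude 0, but neither gene passed the adjustment over all genes. Ptges differed by 0.27 and Slco2a1 by -0.45, and the other 5 members by -0.15 to 0.06, on the log2 scale. In normal tissue the test called 0% of all genes, with 645 at an unadjusted p under 0.05, and none of the 10 members; Ptgs2 differed by -0.15, Hpgd by -0.09 and Ptger3 by -0.31, each with an adjusted p of 1 in limma.

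The title groups were compared with WT-young tumors, which serve as the control of all 3 comparisons, so these are not independent. None of the 10 members was called in the KO-1-hetero comparison (2.88% of all genes called), the KO-8-hetero comparison (0.00725%) or the KO-8-homo comparison (0.457%), nor between KO-8-homo and KO-8-hetero (0.0507%). At an unadjusted p under 0.05 these comparisons had 2632, 961, 1399 and 801 genes. Ptgs2 averaged 2.51 ± 1.33 FPKM (SD, n = 3) in KO-1-hetero tumors, 10.9 ± 12 (SD, n = 3) in KO-8-hetero, 15.2 ± 14.7 (SD, n = 3) in KO-8-homo and 5.73 ± 2.74 (SD, n = 4) in WT-young. Its log2 differences from WT-young were -0.88 (95% interval -2.10 to 0.34), 0.47 (-0.75 to 1.69) and 0.99 (-0.23 to 2.21), and none passed the threshold within these wide intervals. Hpgd averaged 39 ± 8.2 FPKM (SD, n = 3), 26.4 ± 9.48 (SD, n = 3) and 24.9 ± 8.82 (SD, n = 3) in the same KO groups against 44.6 ± 16.5 (SD, n = 4) in WT-young. The Hpgd differences were -0.14 (adjusted p = 0.862), -0.72 (adjusted p = 0.705) and -0.81 (adjusted p = 0.362) in limma. Ptger3 averaged 0.716 ± 0.204 FPKM (SD, n = 3), 0.378 ± 0.136 (SD, n = 3) and 0.572 ± 0.34 (SD, n = 3) against 1.24 ± 0.931 (SD, n = 4), with differences of -0.30, -0.61 and -0.44. KO-8-homo and KO-8-hetero tumors, which differ in the zygosity word of the title, differed by 0.52 for Ptgs2 (95% interval -0.78 to 1.82), -0.09 for Hpgd (-0.80 to 0.61) and 0.17 for Ptger3 (-0.42 to 0.76).

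Differences between single tumors were larger than those between groups for Ptgs2, and they went along with the neutrophil markers. The summed level of S100a8, S100a9, Csf3r, Cxcr2 and Retnlg was 16.1 to 1759 FPKM in tumors (median 226) and 2.25 to 31.7 in normals (median 5.04). The 2 tumors with the highest Ptgs2, KO-8-homo tumor 1 (32.1 FPKM) and KO-8-hetero tumor 2 (24.8), also had the highest neutrophil sums (1545 and 1759 FPKM). In the same order, they were also the highest in Il1b (143 and 96.6 FPKM), Il6 (8.06 and 9.75) and Cxcl1 (63.2 and 44.3). The 4 tumors whose Ptgs2 was below 2 FPKM had the 4 lowest sums, from 16.1 to 75.1. Over the 14 tumors Pearson's r of the log2 values was 0.88 (permutation p = 5.0e-05, adjusted p = 0.0005 over 10 relations) and Spearman's rho was 0.90 (permutation p = 4.0e-05, adjusted p = 0.0004). Without the 2 tumors farthest from the median of the markers r was 0.88 (permutation p = 0.00016, n = 12), and within the 9 KO tumors it was 0.93 (permutation p = 0.00024). The 5 WT tumors are too few for a correlation of their own. The 10 relations were chosen by hand, and the share of all genes with as high an r to Ptgs2 was not computed. The relation is therefore not shown to be particular to neutrophil markers.

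Ptges also went along with these markers, with r = 0.75 (permutation p = 0.00232, adjusted p = 0.0116) and rho = 0.82 (permutation p = 0.00059, adjusted p = 0.00295) over 14 tumors. Without the 2 farthest tumors r was 0.84 (permutation p = 0.00046, n = 12), and within the 9 KO tumors 0.90 (permutation p = 0.00165). For the macrophage markers the relation with Ptgs2 did not pass (r = -0.27, permutation p = 0.343, adjusted p = 0.49). Ptgs2 and Ptges correlated with each other at r = 0.85 over the same tumors, and Hpgd with Ptges at -0.64, as descriptions. Neutrophil markers rose in tumors, 4 of 5 under the WT label and 5 of 5 under the KO label. Of all genes 15.5% (WT) and 24.1% (KO) were called higher. Of these markers, Cxcr2 was at 0.193 FPKM or less in all normals, so it passed the filter only through tumors. None of the 5 was called between KO and WT tumors. What part neutrophils have in the level of Ptgs2 or Ptges was not tested.

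**Figure D4:**
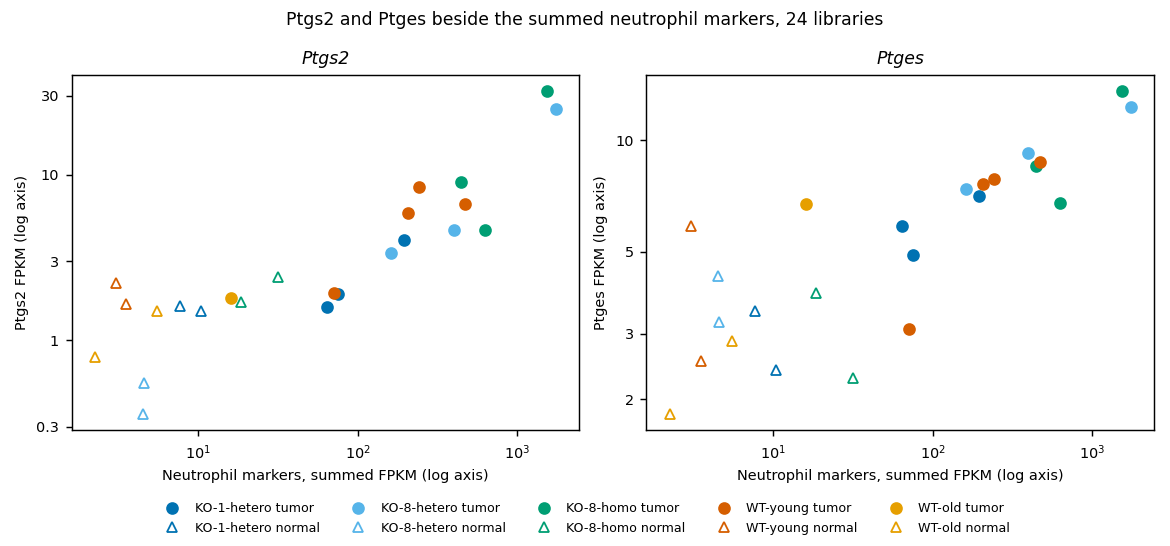
Ptgs2 (left) and Ptges (right) against the summed FPKM of 5 neutrophil markers in each library, both axes log; filled circles are tumors, open triangles normals, colors the title groups. The 2 tumors at 1545 and 1759 FPKM of markers have the highest values of both genes, and r over the 14 tumors is 0.88 for Ptgs2 and 0.75 for Ptges.

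For the other members the paired markers gave no relation past the adjusted threshold. Slco2a1 and the endothelial markers had r = 0.15 over 14 tumors (permutation p = 0.599, adjusted p = 0.749), although within the 9 KO tumors r was 0.82 (permutation p = 0.00667, unadjusted). Without the 2 tumors farthest from the median of the markers r was 0.53 (permutation p = 0.0733, n = 12). Ptgs1, which tuft cells express, had r = 0.07 with the tuft cell markers (permutation p = 0.809, adjusted p = 0.809) and 0.67 within the 9 KO tumors (permutation p = 0.0492, unadjusted). For Ptgs1 the value without the 2 farthest tumors was 0.34 (permutation p = 0.296, n = 12). Ptger3 had r = -0.36 with the enteric neuron markers (permutation p = 0.209, adjusted p = 0.419).

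The genes whose levels tracked each member most closely over the 14 tumors are given as a description, by Pearson's r of log2(FPKM + 1) among all 13799 genes. Those of Ptgs2 were Trem1 (0.96), a receptor of neutrophils and monocytes, the cytokine Il11 (0.94) and the myeloid lectin Clec4d (0.93). Those of Ptges were Fhl3 (0.92), the fibroblast growth factor Fgf7 (0.91) and Il18rap (0.91), a subunit of the interleukin-18 receptor. The closest to Hpgd were Pttg1ip (0.89), Nat2 (0.89) and Ebpl (0.88), and the closest to Ptges2 included Tsta3 (0.95) and Taldo1 (0.94). Ptger2 tracked Cd68 (0.97), a macrophage marker, with Rab8b and Plekho2 (0.95 each), and Ptger3 tracked Slc8b1 (0.96), the magnesium channel Trpm6 and the serotonin transporter Slc6a4 (0.95 each). For Ptgs1 they were Pik3ip1 (0.88), Tmem86a and Srsf1 (0.86 each), and for Slco2a1 Capzb (0.89), Herc4 (0.86) and Actr3 (0.85). Ptger1 tracked the interferon-induced genes Oas1b (0.90) and Ifit3 (0.88) and the kinase Pkmyt1 (0.88), and Ptger4 tracked Ugt2b34 (0.86), Myb (0.85) and Zfp873 (0.84).

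Other genes of the pathway were taken from lists and are described by the counts that passed limma's test in tumors against normal tissue, with the background shares given above. Of 14 tested phospholipases, which release arachidonic acid, 2 rose and 3 fell under the WT label, and 3 rose and 5 fell under the KO label. The secreted phospholipase Pla2g2a went from 22.9 ± 11.5 FPKM (SD, n = 6) to 249 ± 85.8 (SD, n = 9) under the KO label, a log2 rise of 3.43 (SE 0.62, adjusted p = 0.000152, limma), and rose by 3.29 under the WT label (SE 0.79, adjusted p = 0.0037). Pla2g2e rose by 1.17 (WT) and 1.45 (KO), Pla2g12b fell by 1.55 under the WT label and Pla2g3 fell by 1.48 under the KO label. The median of the list was 0.25 (WT) and -0.31 (KO).

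Of 9 other prostanoid synthases, 2 rose and 2 fell under the WT label, and 1 rose and 3 fell under the KO label. Cbr1, a carbonyl reductase that acts on prostaglandin E2, fell by 1.36 (WT, adjusted p = 6.99e-05) and 1.25 (KO, adjusted p = 3.47e-06). Ptgds, a prostaglandin D synthase, rose by 1.05 and 1.10, the thromboxane synthase Tbxas1 rose by 0.88 under the WT label, and Fam213b fell by 0.69 under the KO label. In all normals Ptgds was at 0.261 FPKM or less, so it passed the filter only through tumors. Of the receptors for other prostanoids only 2 of 5 were high enough to be tested, and the thromboxane receptor Tbxa2r fell by 0.50 under the KO label (adjusted p = 0.0375, limma). Of the 5 genes of export and later breakdown, 1 rose and 3 fell under each label. The exporter Abcc4 rose by 1.52 (WT, adjusted p = 0.0007) and 1.77 (KO, adjusted p = 4.83e-06), from 3.72 ± 0.613 FPKM (SD, n = 6) to 15.9 ± 5.94 (SD, n = 9) under the KO label. Zadh2 fell by 0.72 and 0.50, and the reductase Ptgr2 fell by 0.53 (WT) and 0.43 (KO).

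The lipoxygenase and leukotriene list, whose enzymes draw on the same acid, held 3 rises and no fall among 9 tested genes under the WT label and 6 rises and 1 fall under the KO label. The 3 rises under the WT label were the lipoxygenases Alox12, Alox12e and Alox15, and under the KO label Alox5ap, Lta4h and Ltb4r1 rose as well. Alox12 went from 0.521 ± 0.141 FPKM (SD, n = 6) to 19 ± 14 (SD, n = 9) under the KO label, a rise of 3.38 (SE 0.542, adjusted p = 4.49e-05), with 3.37 under the WT label (SE 0.69, adjusted p = 0.00115). The KO normals of Alox12 were below the 1 FPKM of the filter, so under that label it met the filter only through tumors. Alox15 rose by 2.47 (WT) and 2.82 (KO), Alox12e rose by 1.22 (WT) and 1.07 (KO), and the leukotriene synthase Ltc4s fell by 0.92 under the KO label. Of 9 cytokine and receptor genes known to induce Ptgs2, 4 rose and none fell under each label. Il1b rose by 3.44 and 3.48, Tnf by 2.28 and 2.09, and Il1a by 1.89 and 2.13 (WT and KO in each case, largest adjusted p = 0.000891, limma). Of 13 genes reported as induced by prostaglandin E2 or cyclic AMP, 3 rose under the WT label and 8 under the KO label, and none fell. Cxcl1, a neutrophil chemokine, rose by 3.06 and 3.47, the cyclic AMP modulator Crem by 0.92 and 0.97, and the phosphodiesterase Pde4b by 0.76 and 1.05. Cxcl1 was at 0.101 to 1.29 FPKM in normals, so it too passed the filter through tumors. Il6, 1 of the 8 rises under the KO label, was at 0.217 FPKM or less in all normals and passed it only through tumors. The medians of this list were 0.53 (WT) and 0.73 (KO), against 0.02 for all genes. Between KO and WT tumors or normals no gene of any of these lists was called.

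**Figure D5:**
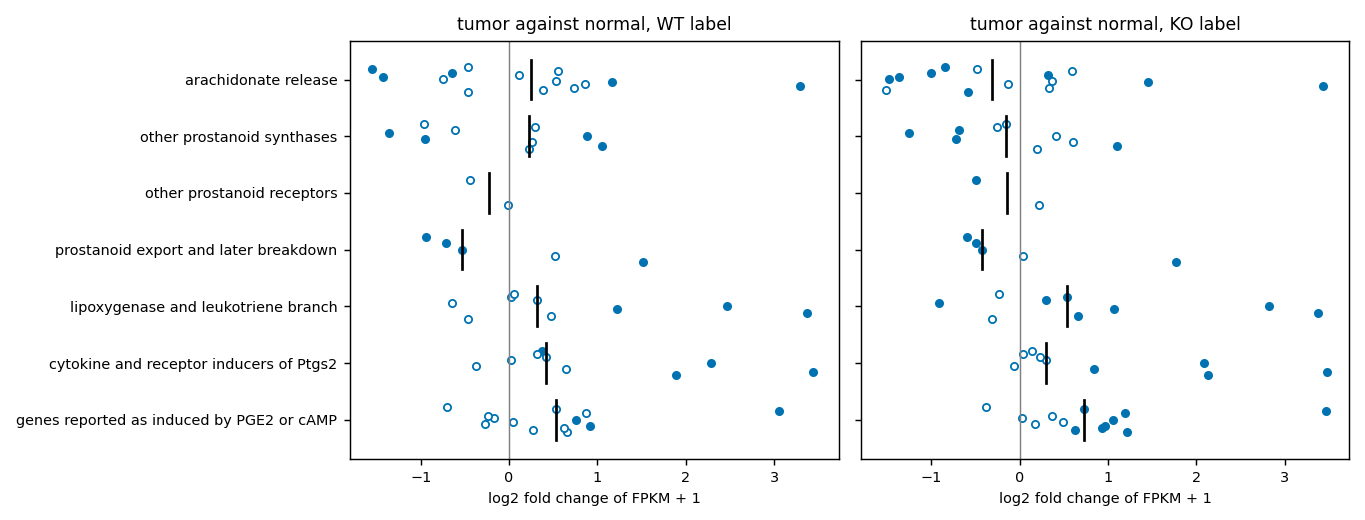
Log2 fold change of FPKM + 1, tumor against normal, for each gene of 7 pathway lists under the WT label (left) and the KO label (right); filled dots passed an adjusted p of 0.05 in limma, open dots did not, and the black bar is the list's median. The points farthest to the right include Pla2g2a (3.29 and 3.43), Alox12 (3.37 and 3.38), Il1b (3.44 and 3.48) and Cxcl1 (3.06 and 3.47).

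In KO-1-hetero against WT-young tumors, 2 genes of these lists were called, both lower. Alox12 differed by -1.94 (adjusted p = 0.0356) and the prostaglandin reductase Ptgr1 by -0.74 (adjusted p = 0.0462) in limma. They were 1 of 9 tested lipoxygenase and leukotriene genes and 1 of 5 genes of export and later breakdown. The other pathway lists had no call. Of all genes 2.88% were called in this comparison, so these few calls are near the background. That comparison also differed in other cell types' markers. Of 6 B cell markers 4 were higher, among them Cd79a by 3.01, Cd79b by 2.49 and Ms4a1 by 2.24 on the log2 scale, and of 7 smooth muscle markers 2 were higher, Cnn1 by 2.58 and Des by 2.94. The T cell marker Cd3e was higher by 1.08, and the epithelial marker Krt18 (-0.77) and the tuft cell marker Avil (-1.85) were lower. The part of these cells in the 2 calls was not tested.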

How the data were processed

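Total RNA of mouse colorectal tissue was made into strand-keeping mRNA libraries, per the labels' protocols. FPKM values per gene symbol were deposited by the authors, 1 table per library. The submitters' processing notes name TopHat2 2.1.1, Bowtie2 2.2.8, SAMtools 0.1.18, Cuffdiff 2.2.1 and build mm10, with no settings. Read totals are not in the tables, so depth is known only relative to the median library, and no counting intervals are given. It was taken from the commonest ratio of FPKM values to those of a reference library, over genes below 1 FPKM in all libraries.

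Differences were tested on log2(FPKM + 1), which understates changes of low genes, with limma 3.58.1 in R 4.3.3 (lmFit, contrasts.fit and eBayes with a trend, two-sided). Genes needed 1 FPKM in at least 4 libraries, which kept 13799 genes and all 10 members. A gene low in 1 tissue could pass this filter through the other tissue, and its change is then not independent of the filter. Adjusted p-values are Benjamini-Hochberg over all these genes, with a threshold of 0.05. Label comparisons used a model of label and tissue, and title-group comparisons a model of the 10 title groups, each over all 24 libraries. The fit was tested on simulated data. Correlations used log2 values of tumors and 100000 permutations, two-sided. Promoter sequences are those of RefSeq, build GRCm38.p6.

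The members, pathway lists and marker lists were chosen with earlier results of these data known, so their directions are not independent evidence. The genes named from each pathway list are up to 3 by p among those called under each label; a few genes that the rules name are not reported here. Alox5ap, Lta4h, Ltb4r1, Ptgr1, Il6 and the single cell markers with values were named after their values were seen. The cell marker lists were epithelium, mature colonocyte, tuft cell, fibroblast, smooth muscle, enteric neuron, endothelium, macrophage, neutrophil, mast cell, T cell and B cell. Alternatives changed the pseudocount, filter, scaling, trend, weights of title groups and libraries included.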

Additional observations from a re-analysis of the deposited data

Results flagged for a closer look

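Of 50 groups of member values examined for a library far from the others, 1 had such a library, and chance alone is set to mark about 5% of groups. In the 6 KO normals Ptges2 was at 45 FPKM in KO-8-hetero normal 2, while the nearest of the other libraries was at 23.8 FPKM and the median was 23.6 FPKM. Without that library the KO-label tumor-to-normal value of Ptges2 was -0.67, against -0.83 with it, and Ptges2 was still called.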

How the results depend on the processing

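Among the counts of members called, the WT-label count of 4 in tumors against normals was 2 without the 3 WT-old libraries; leaving out 1 library at a time gave 3 to 5 for the WT label and 6 in every case for the KO label. Without the libraries with Xist the KO-label count was 4. The comparisons of KO with WT and of title groups called 0 members in every refit. Of refits of member values that were called, 95 of 100 gave the call again and 5 did not, and of those leaving out 1 library 238 of 240 did. Replicate numbers did not pair the samples (8 pairs, r from -0.16 to 0.35, 1 over 0.1), and with the number as a replicate block the counts were 4, 6 and 0 as without it.

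Values near 0 that turned sign, none of them called, were as follows. In tumors against normals, WT label: Ptgs1 0.00 (pseudocount 0.1), 0.01 (median-ratio scaling) and 0.19 (equal weights); Ptger1 0.09 and Ptger4 -0.04 (equal weights); Ptger2 -0.09 and Ptger4 -0.03 (quantile normalisation); Ptger2 -0.39 (without WT-old). KO label: Ptger1 0.01 (median-ratio scaling); Ptger2 -0.04 (quantile normalisation); Ptger1 0.03 and Ptger2 -0.04 (without Xist libraries). KO against WT tumors: Ptges2 0.01, 0.02 and 0.14 and Ptger2 -0.01 and -0.16 (scalings and equal weights); Ptgs1 0.06 (without WT-old). Normals: Hpgd 0.03 (without WT-old) and Ptgs2 0.29 (without Xist libraries).

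Leaving out 1 library gave ranges that crossed 0 in the same genes: Ptgs1 -0.29 to 0.39 (WT), -0.28 to 0.09 (KO) and -0.31 to 0.06 (KO against WT tumors); Ptger1 -0.14 to 0.02 (WT) and -0.18 to 0.14 (KO); Ptger2 -0.12 to 0.19 (WT) and -0.07 to 0.20 (KO against WT tumors); Ptger4 0.00 to 0.11 (WT) and -0.11 to 0.03 (KO); Ptges2 -0.12 to 0.07 (KO against WT tumors); Hpgd -0.21 to 0.09 (normals), -0.29 to 0.07 (KO-1-hetero) and -0.31 to 0.23 (KO-8-homo against KO-8-hetero). Ptgs2 ranged from -0.32 to 0.96 (KO-8-hetero) and -0.19 to 1.31 (KO-8-homo against KO-8-hetero).

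Counts over all genes moved more. Without WT-old the WT-label count fell from 4192 to 2661, and without Xist libraries the KO-label count fell from 6520 to 3652 and the KO-1-hetero count from 397 to 94. Equal weights for title groups, which let the lone WT-old tumor carry as much as 4 WT-young tumors, gave 771 genes in KO against WT tumors, 7 in normals and 218 in the interaction, against 1, 0 and 0. Without Xist libraries the interaction had 7. The count of 1 in KO against WT tumors was 0 with a pseudocount of 0.1, no filter, no trend, without WT-old or without Xist libraries, and 0 to 2 with 1 library left out. The KO-8-homo against KO-8-hetero count of 7 became 4 to 19 and the KO-8-hetero count of 1 became 0 to 3 across these settings; with 1 library left out they ran from 0 to 344 and from 0 to 245, the KO-1-hetero count from 15 to 596 and the KO-8-homo count from 18 to 78. The causes were not tested. Relative depth differed 2.68-fold between libraries, which limits the lowest genes, Ptger2 and Ptger3, most.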

Other observations

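Mast cell markers also rose in tumors: 6 of 7 passed upward and 1 downward under each label, with list medians of 1.99 (WT) and 2.29 (KO). Their summed level was 50.7 to 506 FPKM in tumors and 13.5 to 39 in normals. Hpgds, the prostaglandin D synthase known from mast cells, averaged 5.15 ± 2.17 FPKM (SD, n = 5) in WT tumors against 3.94 ± 0.558 (SD, n = 4) in WT normals, and 4.79 ± 3.89 (SD, n = 9) in KO tumors against 2.6 ± 1.37 (SD, n = 6) in KO normals. Neither difference passed limma's test (0.26, adjusted p = 0.597, and 0.60, adjusted p = 0.0738). The KO tumor mean rested on KO-8-hetero tumor 1 at 15 FPKM, while the other KO tumors ran from 2.4 to 4.63. That tumor had the highest tuft cell sum of all tumors (51.6 FPKM) and a mast cell sum of 99.7 FPKM. Macrophage markers rose in 5 of 7 cases under each label, and T cell markers in 0 of 6 (WT) and 1 of 6 (KO). Fibroblast markers rose in 1 of 7 (WT) and 4 of 7 (KO), with 1 lower under the KO label. Tuft cell markers, of which 1 rose and 3 fell among 6 tested under each label, had a summed level of 7.48 to 51.6 FPKM in tumors and 3.85 to 16.7 in normals. Epithelial markers fell in 1 of 7 (WT) and 3 of 7 (KO). Enteric neuron markers fell in 2 of 4 tested under each label, with 1 higher under the KO label. No B cell marker was called in tumors against normals under either label.

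Alox5, the 5-lipoxygenase, was at 0.843 ± 0.369 FPKM (SD, n = 5) in WT tumors and 1.37 ± 0.629 (SD, n = 9) in KO tumors, against 1.59 ± 0.769 (SD, n = 4) and 1.9 ± 0.583 (SD, n = 6) in the normals. Pla2g4a, the cytosolic phospholipase that supplies the cyclooxygenases, fell by 0.59 under the KO label (SE 0.172, adjusted p = 0.00771), while the WT-label value of -0.46 did not pass (adjusted p = 0.114, limma). Areg, an epidermal growth factor receptor ligand, rose by 1.21 under the KO label (adjusted p = 0.00972) and differed by 0.65 under the WT label (adjusted p = 0.297). The difference between labels was not called for any gene. These genes and lists were picked for description after their values had been seen.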
